A study of Mus musculus with 8 samples.

Results

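Integrins, cadherins, protocadherins and the other adhesion proteins of cell junctions were described in muscle-derived cells of the mouse. The members were the genes of the deposited table whose symbol begins with the family name of an integrin subunit, a cadherin, a protocadherin, a claudin or a Cadm protein, or that is one of the Fat cadherins, Jam2, Jam3, Ncam1 or Ncam2. This gave 30 of the 5457 listed genes. They comprised 4 subunits of laminin-binding integrins, 3 subunits of integrins that bind the RGD motif, 1 leukocyte integrin subunit, 4 cadherins, 1 Fat cadherin, 3 genes of the Pcdhb cluster, 1 of the Pcdhg cluster, 4 non-clustered protocadherins, 3 claudins and 5 Jam, Ncam and Cadm genes. The remaining member, Itgb1bp2, carries an integrin name but encodes melusin, a cytoplasmic protein that binds the tail of the beta1 subunit and is no receptor. Cldn25, counted with the claudins by its name, is a symbol used for more than 1 gene and may be no claudin. Family members outside the table, among them Itga3 and Cdh2, were not analysed here.

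The cells were sorted by their tdTomato signal out of hind limb muscle, and the mice were adults of the C57BL/6 strain. In the Pax7 groups the mice were Pax7-CreERT2/+;R26-tdTO+ and in the Tw2 groups Tw2-CreERT2/+;R26-tdTO+, so that tamoxifen, given in 3 treatments with the harvest after 10 days, marked cells in which the Pax7 or the Tw2 (Twist2) promoter was active. Pax7 is the transcription factor that defines satellite cells, the stem cells of skeletal muscle, and Twist2 marks another progenitor cell of the muscle interstitium. All sorted cells were plated on Matrigel, a basement membrane extract rich in laminin, in Ham's F10 with 20% fetal bovine serum, and a medium of high-glucose DMEM with 2% horse serum and bFGF served for differentiation. The titles put the 8 libraries into 4 groups of 2, Pax7_GM, Pax7_48, Tw2_GM and Tw2_48. GM stands here for the title's own abbreviation, taken as growth medium, and 48 is given with an hour unit in the Tw2 titles alone. No label says which medium the 48 cultures were in, what sex the mice were, or whether the libraries of a group came from separate mice, and the extraction label speaks of freshly sorted cells where the source label speaks of cultured ones. Spreads and p-values therefore describe these libraries and may be technical.

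Integrins are pairs of an alpha and a beta subunit that tie the matrix outside a cell to its actin skeleton, and the laminin receptor alpha7beta1 is the main one of the muscle fibre. Cadherins and protocadherins join cells to each other through like molecules on the neighbouring cell, and M-cadherin, the product of Cdh15, is the cadherin of satellite cells and myoblasts. Claudins and Jam proteins belong to tight junctions in epithelia, and Ncam1, Jam2 and Jam3 are also known from myoblasts around the time of fusion.

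Each value below is in CPM, reads scaled to the size of the library. The deposited values were means of 2 libraries, and they were taken apart into the whole reads of each, which worked for all 30 members. Where 4 pairs of values are given they stand in the order deeper library, then shallower library. The implied library sizes were 12.2 and 11.3 M reads (Tw2_GM), 7.38 and 5.18 M (Pax7_GM), 13.7 and 9.40 M (Tw2_48) and 10.6 and 7.64 M (Pax7_48). The libraries of Pax7_GM were the least alike, with a Pearson correlation across genes of 0.962 against 0.994 to 0.996 in the other groups. Pax7 itself stood at 113 and 109 CPM in the Tw2 and 117 and 112 CPM in the Pax7 libraries of GM, and was at 9.58 to 12.96 CPM in all 48 libraries. The likeness of the lineages in GM holds for the deposited scale and depended on the scaling, as given below. Myog and Ckm, genes of differentiating muscle, were at least 2247 and 419 CPM in every 48 library and at most 439 and 13.5 CPM in every GM library. Twist2 and tdTomato were not analysed here.

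In the text, a log2 fold change is the difference of group means of log2(CPM + 1), given with its SE, and a gene is called where the Benjamini-Hochberg adjusted p of limma, over 5452 genes, is under 0.05. The added 1 understates the change of genes at low CPM. Of the 30 members 25 were called between Pax7_48 and Pax7_GM, 11 higher and 14 lower in Pax7_48, against 79.2% of all genes called, 38.8% higher and 40.5% lower. Between Tw2_48 and Tw2_GM 27 members were called, 12 higher and 15 lower, against 84.1% of all genes, 35.3% higher and 48.9% lower. Between Tw2_GM and Pax7_GM 22 members were called, 15 higher and 7 lower in Tw2_GM, against 74.7% of all genes, 48.7% higher and 26.0% lower. The comparison of Tw2_48 with Pax7_48 called 22 members, 18 higher and 4 lower in Tw2_48, against 65.4% of all genes, 43.3% higher and 22.1% lower. The table lists genes that differ from Tw2_GM, so these shares are high for any list. No test was made of the members' shares against them.

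The 11 members higher at 48 in both lineages were Itga7, Itgb5, Itgb6, Itgam, Itgb1bp2, Cdh13, Cdh15, Cldn2, Jam2, Jam3 and Ncam1, and all 11 were called the same way after scaling by size factors, quantile normalization or removal of the trend with GC content and length. Of all genes 33.2% were higher at 48 in both and 39.4% lower. The 14 lower at 48 in both were Itgb4, Itga6, Itgav, Cdh11, Cdh18, Fat1, Pcdhgb1, Pcdh1, Pcdh7, Pcdh18, Pcdh19, Cldn12, Cldn25 and Cadm1. Of these 14, 11 were called the same way under those scalings, and Cldn25, Pcdhgb1 and Pcdh1 were not. The lineages differed in the same direction in both cultures for 17 members, while of all genes 37.0% were higher and 14.7% lower in Tw2 in both. Higher in Tw2 were 14, of which 9 held under each scaling, namely Itga6, Itgb1, Jam2, Cadm4, Pcdh7, Pcdhb17, Pcdhb19, Pcdhb22 and Pcdhgb1. Lower in Tw2 were Itga7, Itgb4 and Itgb5, of which Itgb4 and Itgb5 held. The table keeps genes at 10 CPM or more in at least 4 libraries, and 9 members met this through 1 side of a comparison alone. Pcdhb17, Pcdhb19, Pcdhb22 and Pcdhgb1 did so in the 4 Tw2 libraries, Itgb6, Itgam and Cldn2 in the 4 libraries at 48, and Cdh18 and Pcdh18 in the 4 of GM. For these 9 the filter favoured the side where they are high, and their values across it are a description that supports no count. The counts above include them, among them the 11 and 14 between the cultures and the 14 and 9 higher in Tw2. Those counts therefore support no direction for the members as a set. The share of all genes that held under every scaling was not worked out.

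**Figure D1:**
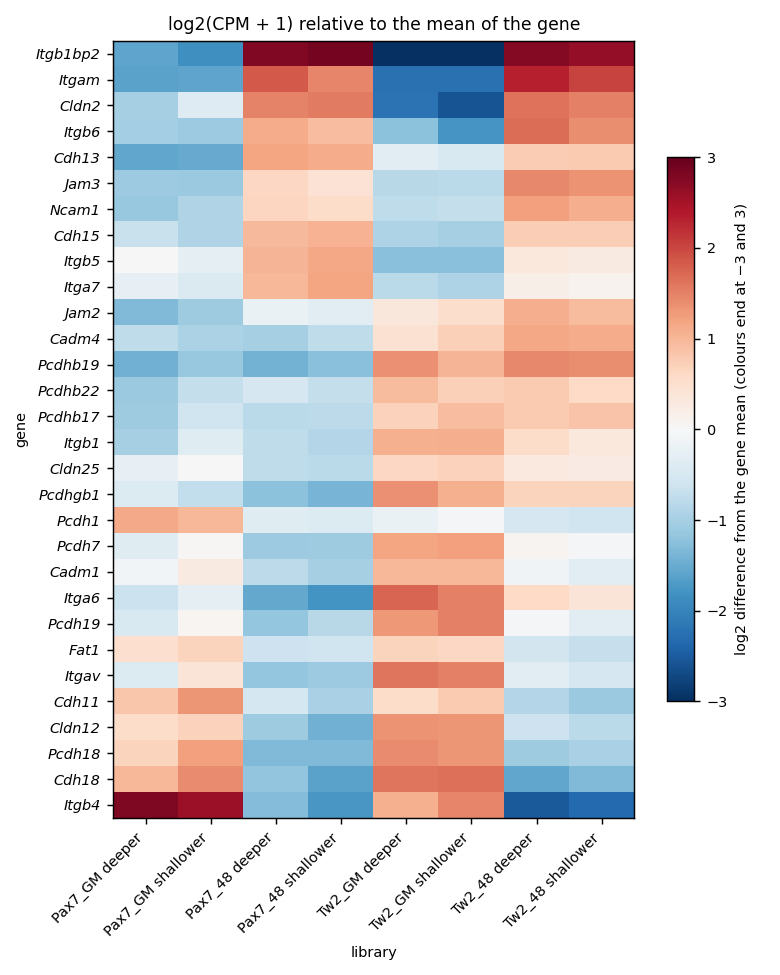
Log2(CPM + 1) of the 30 members in the 8 libraries, each gene relative to its own mean, with the genes sorted by the sum of their culture differences and the colours ending at −3 and 3. The top 10 rows are darker red in the 48 libraries of both lineages, the bottom rows are blue there, and the rows in the middle, with the 3 Pcdhb genes, separate the Tw2 from the Pax7 libraries.

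Of the 11 members that were higher at 48 in both lineages, RefSeq's promoter table for GRCm38.p6 held 5. The 250 bases before the transcription start of these 5 are shown. Itgb6, Itgam and Cldn2 among them reached 10 CPM at 48 alone, so the filter of the table selected for their rise. The capitals mark each match to CANNTG, the E-box that MyoD and other bHLH factors bind, on either strand. For Itgb6, with more than 1 start in the table, the first listed is shown.
Itgb5 (chr16:33829415-33829664, plus strand): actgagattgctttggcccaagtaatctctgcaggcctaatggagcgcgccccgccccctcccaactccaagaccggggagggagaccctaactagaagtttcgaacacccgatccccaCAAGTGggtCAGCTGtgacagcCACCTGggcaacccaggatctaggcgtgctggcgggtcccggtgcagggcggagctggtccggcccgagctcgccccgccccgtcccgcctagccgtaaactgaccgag
Itgb6 (chr2:60722604-60722853, minus strand): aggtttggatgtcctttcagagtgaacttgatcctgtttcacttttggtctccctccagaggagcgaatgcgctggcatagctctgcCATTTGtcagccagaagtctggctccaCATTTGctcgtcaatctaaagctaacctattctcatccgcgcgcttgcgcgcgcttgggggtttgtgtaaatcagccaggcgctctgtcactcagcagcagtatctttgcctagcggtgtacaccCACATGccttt
Itgam (chr7:128062390-128062639, plus strand): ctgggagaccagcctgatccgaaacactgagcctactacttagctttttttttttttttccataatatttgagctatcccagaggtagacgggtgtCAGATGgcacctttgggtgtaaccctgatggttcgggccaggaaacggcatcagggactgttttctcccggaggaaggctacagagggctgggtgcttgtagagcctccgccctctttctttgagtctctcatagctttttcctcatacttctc
Cdh15 (chr8:122848124-122848373, plus strand): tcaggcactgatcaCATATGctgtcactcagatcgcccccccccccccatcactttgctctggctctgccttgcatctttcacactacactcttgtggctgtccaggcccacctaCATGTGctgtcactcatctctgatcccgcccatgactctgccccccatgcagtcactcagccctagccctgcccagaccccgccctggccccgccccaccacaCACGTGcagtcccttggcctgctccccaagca
Cldn2 (chrX:139800558-139800807, plus strand): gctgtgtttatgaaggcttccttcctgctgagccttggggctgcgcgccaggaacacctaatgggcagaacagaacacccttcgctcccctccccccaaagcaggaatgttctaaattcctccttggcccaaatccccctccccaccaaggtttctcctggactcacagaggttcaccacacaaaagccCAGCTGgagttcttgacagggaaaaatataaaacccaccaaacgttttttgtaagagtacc
CANNTG was found in 66.2% of 32851 promoter windows of this length and in those of 7 of the 14 member genes that the table held, with all 5 genes shown here among the 7. The palindrome CAGCTG, a form of CANNTG that myogenic factors prefer, was in 13.001% of all windows and in 2 of the 14, at position -61 in Cldn2 and -122 in Itgb5. A MEF2 site was in 2.92% of all windows and in none of the 14. The 7 genes with CANNTG also include Fat1 and Pcdh19, which were lower at 48 in both lineages. These matches describe the letters of the windows and no binding.

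The lineage comparison is the one that the scaling moves most. The median log2 fold change of all genes between Tw2_GM and Pax7_GM was 0.34, and size factors moved it by -0.84, quantile normalization by -0.48 and the removal of the GC and length trend by 0.14. For Tw2_48 against Pax7_48 the median was 0.27 and the moves were -0.63, -0.29 and 0.01. These scalings used the listed genes alone, which were selected for a difference from Tw2_GM. Of each library's implied size, the listed genes held 59.5% and 58.4% in Tw2_GM and 44.6% and 43.5% in Pax7_GM. At 48 they held 65.7% and 62.9% in Tw2 and 57.4% and 58.0% in Pax7. For the gene Pax7 the log2 fold change between Tw2_GM and Pax7_GM was -0.05 and not called as deposited. It was called at -0.91 after size factors, -0.60 after quantile normalization and 0.55 with the trend removed. Which scaling is right for the lineages was not tested. Of all called genes 65.2% were higher in Tw2_GM than in Pax7_GM as deposited, 32.1% after size factors, 47.2% after quantile normalization and 79.9% with the trend removed, and for the 48 cultures these shares were 66.2%, 26.4%, 48.4% and 76.5%. The median over all genes also fell with GC content, from 1.87 in the lowest of 5 classes to -0.39 in the highest for Tw2_GM against Pax7_GM. The transcripts of Itga6, Itgav and Itgb1 had a GC content of 48.9%, 43.5% and 44.8%, and those of Itga7, Itgb4, Itgb5 and Pcdh1 had 57.8%, 60.0%, 57.0% and 60.7%. Cadm4, at 60.0%, was higher in Tw2 nonetheless. The part of GC content in the lineage differences was not tested beyond the removal of the trend. Between the cultures the same scalings moved the median by 0.24, 0.14 and -0.12 in Pax7 and by 0.45, 0.24 and 0.15 in Tw2.

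The laminin-binding integrins differed between the lineages in their alpha subunit. Itga6, the alpha6 subunit, which pairs with beta1 or beta4, was at 890 and 759 (Tw2_GM), 169 and 215 (Pax7_GM), 402 and 344 (Tw2_48) and 89.6 and 75.8 CPM (Pax7_48). No 2 groups overlapped, and the order was Tw2_GM, Tw2_48, Pax7_GM and Pax7_48. The log2 fold change of Tw2 over Pax7 was 2.10 ± 0.18 in GM (limma adjusted p = 5.52e-05) and 2.16 ± 0.18 at 48 (adjusted p = 1.33e-04). At 48 Itga6 had log2 fold changes of -1.20 ± 0.18 in Pax7 and -1.14 ± 0.18 in Tw2.

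Itga7, the alpha7 subunit of the muscle fibre's laminin receptor, was at 553 and 512 (Tw2_GM), 821 and 716 (Pax7_GM), 1098 and 1043 (Tw2_48) and 1930 and 2197 CPM (Pax7_48). It went the other way from Itga6 in both comparisons, and again no groups overlapped. At 48 it rose by 1.42 ± 0.14 on the log2 scale in Pax7 and by 1.01 ± 0.14 in Tw2. The difference of Tw2 from Pax7 was -0.53 ± 0.14 in GM, where it turned to 0.27 with the GC and length trend removed and was no longer called without the shallower Tw2_GM library (log2 fold change -0.47, adjusted p = 0.0628). It was -0.94 ± 0.14 at 48, called under every scaling.

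Per kilobase of transcript the level of Itga7 was 40.0% and 42.0% of the sum of Itga6 and Itga7 in Tw2_GM and 83.9% and 78.1% in Pax7_GM. At 48 it was 74.6% and 76.5% in Tw2 and 95.8% and 96.9% in Pax7. Itga7 was thus 0.667 and 0.723 times Itga6 in the Tw2_GM libraries and 23.1 and 31.1 times Itga6 in the Pax7_48 libraries. With the trend of GC content and length removed, each gene is taken relative to the value that the trend gives it. The ratio of Itga7 to Itga6 on that scale is no ratio of levels. It was 0.877 and 0.936 in Tw2_GM, 3.45 and 3.08 in Pax7_GM, 2.61 and 2.77 in Tw2_48 and 14.8 and 18.5 in Pax7_48. Tw2_GM was the lowest group and Pax7_48 the highest on either scale.

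Itgb1, the beta1 subunit shared by many integrins, was at 1524 and 1535 (Tw2_GM), 360 and 559 (Pax7_GM), 1054 and 900 (Tw2_48) and 426 and 396 CPM (Pax7_48). All 4 Tw2 libraries lay above all 4 Pax7 libraries. The log2 fold change of Tw2 over Pax7 was 1.77 ± 0.21 in GM and 1.24 ± 0.21 at 48, each called under every scaling. Between the cultures it was -0.13 ± 0.21 in Pax7 (adjusted p = 0.587), where the libraries overlapped. In Tw2 it was -0.65 ± 0.21 (adjusted p = 0.0168), a call lost without either Tw2_GM library (adjusted p = 0.0648 and 0.0662) or without the shallower Tw2_48 library (log2 fold change -0.54, adjusted p = 0.106).

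Itgb4, the beta4 subunit, known from the hemidesmosomes of epithelia, was the laminin-binding subunit with the widest spread over the groups. It was at 92.5 and 121 (Tw2_GM), 309 and 261 (Pax7_GM), 6.77 and 7.88 (Tw2_48) and 16.9 and 12.2 CPM (Pax7_48). At 48 it fell, with log2 fold changes of -4.21 ± 0.20 in Pax7 and -3.69 ± 0.20 in Tw2. Tw2 was lower than Pax7 by the log2 fold changes of -1.41 ± 0.20 in GM and -0.89 ± 0.20 at 48. Each of these held under every scaling, though the last was not called without the deeper Tw2_48 library (log2 fold change -0.79, adjusted p = 0.0525). The change between the cultures was not called as different between the lineages for any of the 4 laminin-binding subunits as deposited, and with the trend removed it was called for Itga7 (-0.73, adjusted p = 0.0101).

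**Figure D2:**
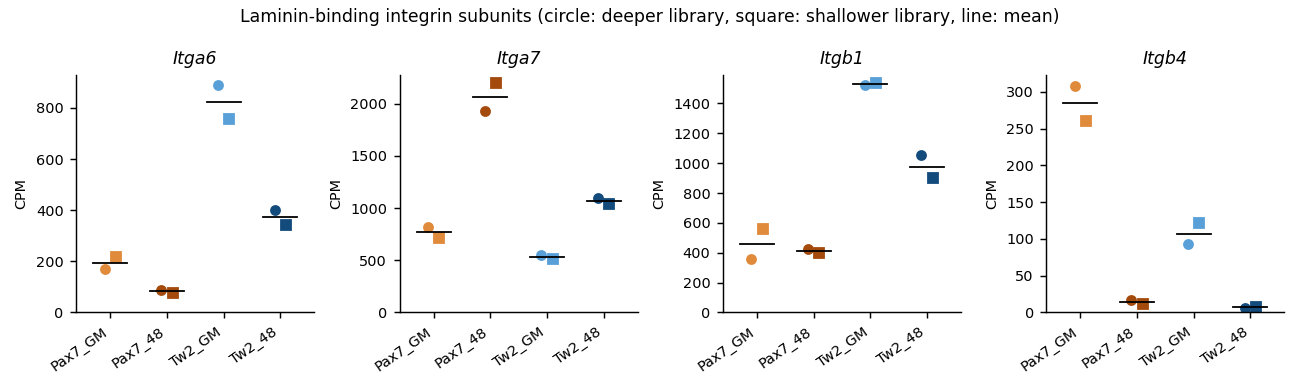
CPM of Itga6, Itga7, Itgb1 and Itgb4 by group, with a circle for the deeper library, a square for the shallower library and a line at their mean, and with a vertical axis of its own for each gene. Itga6 is highest in Tw2_GM (890 and 759 CPM), Itga7 in Pax7_48 (1930 and 2197 CPM), Itgb1 is higher in all Tw2 libraries, and Itgb4 is near 0 in both 48 groups.

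The basement membrane genes that these receptors bind or lie beside moved in both directions. Of a list of 20 laminins and basement membrane components 11 were in the table, and at 48 4 rose and 7 fell in each lineage. Of all genes 38.8% rose and 40.5% fell in Pax7, and 35.3% rose and 48.9% fell in Tw2. The median log2 fold change of the 11 was -1.47 in Pax7 and -2.07 in Tw2 against 0.01 and -0.49 over all genes. Lamb1, the laminin beta1 chain, was at 720 and 742 (Tw2_GM), 579 and 630 (Pax7_GM) and 38.4 to 48.2 CPM (all 48 libraries). Its log2 fold change was -3.67 in Pax7 and -4.05 in Tw2. Dag1, which encodes the laminin receptor dystroglycan, rose by 2.65 in Pax7 and 2.93 in Tw2 on the log2 scale. Between the lineages 7 of the 11 were higher and 1 lower in Tw2_GM, but after size factors none was higher and 5 were lower. Of all 5452 genes 2655 were higher and 1417 lower as deposited, and 1392 higher and 2940 lower after size factors.

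Among the subunits of RGD-binding integrins, Itgav encodes the alphav subunit and Itgb5 and Itgb6 encode beta subunits that pair with it. Itgav was at 254 and 239 (Tw2_GM), 62.2 and 108 (Pax7_GM), 65.2 and 58.4 (Tw2_48) and 36.3 and 38.4 CPM (Pax7_48). The Tw2_GM libraries stood above all others. Its log2 fold change at 48 was -1.98 ± 0.23 in Tw2 and -1.12 ± 0.23 in Pax7, and Tw2_GM exceeded Pax7_GM by 1.58 ± 0.23, each under every scaling. At 48 the lineage difference was 0.71 ± 0.23 (adjusted p = 0.0273). That call was lost without any 1 of the 4 48 libraries (adjusted p = 0.0701 to 0.133), and the value was -0.04 with the GC and length trend removed.

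Itgb5 moved against Itgav, with 27.9 and 27.9 (Tw2_GM), 68.1 and 55.2 (Pax7_GM), 84.2 and 81.8 (Tw2_48) and 138 and 151 CPM (Pax7_48). No groups overlapped. It rose by 1.54 ± 0.14 in Tw2 and 1.22 ± 0.14 in Pax7 on the log2 scale. Tw2 was lower by the log2 fold changes of -1.11 ± 0.14 in GM and -0.79 ± 0.14 at 48, all 4 values being called under every scaling.

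Itgb6, whose pairing with alphav activates latent TGF-beta and is best known from epithelia, was at 7.64 and 4.96 (Tw2_GM), 8.94 and 8.49 (Pax7_GM), 63.0 and 51.8 (Tw2_48) and 42.6 and 37.2 CPM (Pax7_48). Both 48 groups lay above both GM groups, a difference that the filter of the table selects for, since Itgb6 reached 10 CPM at 48 alone. At 48 its log2 fold change was 3.02 ± 0.20 in Tw2 and 2.07 ± 0.20 in Pax7. At 48 Tw2 exceeded Pax7 by 0.51 ± 0.20 (adjusted p = 0.0485), which was lost without any 1 of the 4 48 libraries (adjusted p = 0.0666 to 0.251) and turned to -0.13 after size factors and -0.06 with the trend removed.

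Itgam encodes the alphaM subunit (CD11b), which pairs with the beta2 subunit on myeloid cells. It had 0 reads in both Tw2_GM libraries, where 3 reads, the upper limit for a count of 0, come to 0.246 and 0.266 CPM, and 4 and 3 reads in Pax7_GM. At 48 it was at 22.8 and 18.1 CPM in Tw2 and 15.9 and 11.9 CPM in Pax7. Itgam was thus at least 77.0-fold higher in Tw2_48 than the 3-read limit of the shallower Tw2_GM library. In Pax7 the pooled reads gave a ratio of 25.5, with an exact 95% interval of 12.2 to 64.1 that covers counting error only. These 48 libraries are the only ones in which it reached 10 CPM, so the listing itself selects for the rise. The lineage call in GM rests on 7 reads against 0, close to the 3-read limit, and no fold is given for it. At 48 the lineage difference of 0.53 ± 0.17 was lost without the shallower Pax7_48 library (adjusted p = 0.185) or the deeper Tw2_48 library (adjusted p = 0.180) and was -0.09 after size factors. Of 13 immune marker genes none was in the table, so that their part in the rise of Itgam was not tested. On the genome Itgam overlaps the predicted gene Gm49368 on the same strand.

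Itgb1bp2 (melusin, of striated muscle) had the largest log2 fold change between the cultures among the members on the log2(CPM + 1) scale, in each lineage, while in pooled reads the Pax7 ratio of Itgam, 25.5, stood beside 23.99 for Itgb1bp2. It was at 2.96 and 3.72 (Tw2_GM), 19.0 and 15.6 (Pax7_GM), 404 and 370 (Tw2_48) and 411 and 437 CPM (Pax7_48). The GM groups did not overlap and the 48 groups were within 0.13 of each other on the log2 scale (log2 fold change -0.13 ± 0.15, adjusted p = 0.458), but at -0.79 after size factors and 0.40 with the trend removed, both called. Its log2 fold change at 48 was 6.49 ± 0.15 in Tw2 and 4.54 ± 0.15 in Pax7. In pooled reads this was a ratio of 117 in Tw2, with an interval of 93.9 to 149, and 23.99 in Pax7, with an interval of 20.99 to 27.6.

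Of 17 other integrin ligands 11 were listed, and at 48 2 rose and 9 fell in Pax7 while 1 rose and 9 fell in Tw2, with medians of -2.40 and -2.83. Of all genes 38.8% rose and 40.5% fell in Pax7, and 35.3% rose and 48.9% fell in Tw2. Tnc, the matrix protein tenascin C, was at 890 and 1024 (Tw2_GM), 698 and 672 (Pax7_GM) and 21.7 to 33.0 CPM (all 48 libraries). Tgfb3, a ligand whose latent form carries an RGD motif, rose by 3.16 in Pax7 and 4.01 in Tw2 on the log2 scale. Of 31 integrin adaptor and signalling genes 16 were listed, and 6 rose and 9 fell at 48 in each lineage, beside the same shares of all genes. Flna, the actin crosslinker filamin A, ranged from 3494 to 4067 CPM in the GM libraries and from 230 to 339 CPM in the 48 libraries. Kank1, a focal adhesion protein, rose from 2.22 and 2.12 CPM to 80.0 and 75.6 CPM in Tw2 and from 14.9 and 14.1 CPM to 44.6 and 40.1 CPM in Pax7, and this change differed between the lineages by 3.15 ± 0.18 (adjusted p = 6.9e-05). Lims1 and Fermt2, from the same list of adaptors, were higher in Tw2 in GM (1.99 ± 0.32 and 1.52 ± 0.18) and at 48 (1.53 ± 0.32 and 1.25 ± 0.18), under every scaling.

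Cdh15 (M-cadherin) rose in both lineages, and the direction between them depended on the scaling. It was at 314 and 298 (Tw2_GM), 373 and 316 (Pax7_GM), 988 and 993 (Tw2_48) and 1169 and 1225 CPM (Pax7_48). At 48 its log2 fold change was 1.80 ± 0.13 in Pax7 and 1.69 ± 0.13 in Tw2. Between the lineages it was -0.17 ± 0.13 in GM (adjusted p = 0.287) and -0.27 ± 0.13 at 48 (adjusted p = 0.101). It was called higher in Tw2_GM once the GC and length trend was removed (0.70), and lower after size factors (-1.04 in GM and -0.93 at 48) and, in GM, after quantile normalization (-0.63). Cdh15 overlaps the predicted gene Gm20388 on the same strand.

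Cdh13 encodes T-cadherin, which is held in the membrane by a lipid anchor. It was at 50.2 and 46.7 (Tw2_GM), 21.1 and 21.8 (Pax7_GM), 110 and 112 (Tw2_48) and 148 and 140 CPM (Pax7_48). The order of the lineages thus differed between the cultures. The rise at 48 was 2.69 ± 0.12 in Pax7 and 1.17 ± 0.12 in Tw2 on the log2 scale, and Tw2 was 1.14 ± 0.12 above Pax7 in GM, which was 0.29 and not called after size factors. At 48 Tw2 was at -0.38 ± 0.12 (adjusted p = 0.0252), a call lost without any 1 of the 4 48 libraries (adjusted p = 0.0791 to 0.122) and at -0.12 with the trend removed.

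Cdh11, a cadherin of mesenchymal cells, and Cdh18, a type II cadherin, fell in both lineages. Cdh11 was at 45.5 and 54.1 (Tw2_GM), 55.7 and 79.5 (Pax7_GM), 16.4 and 13.8 (Tw2_48) and 20.95 and 15.2 CPM (Pax7_48). Cdh18 was at 23.001 and 23.5 (Tw2_GM), 14.6 and 19.9 (Pax7_GM), 1.67 and 2.13 (Tw2_48) and 2.44 and 1.57 CPM (Pax7_48). The log2 fold changes at 48 were -1.84 ± 0.22 and -1.66 ± 0.22 for Cdh11 and -2.60 ± 0.20 and -3.07 ± 0.20 for Cdh18, in Pax7 and Tw2 in turn. Neither was called between the lineages in either culture as deposited. Cdh11 was called lower in Tw2 under each of the other scalings, at -1.27, -1.06 and -1.23 in GM and -0.86, -0.59 and -0.77 at 48 for size factors, quantile normalization and the trend removed in turn. Cdh18 was called at 48 after size factors (-0.49), and as it reached 10 CPM in GM alone, its fall at 48 was selected for.

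Beside Cdh11 stand the markers of fibroblasts. Of 8 marker genes 3, Col1a1, Col1a2 and Col3a1, were listed, and their summed level was 946 to 995 (Tw2_GM), 877 to 899 (Pax7_GM), 203 to 241 (Tw2_48) and 380 to 405 CPM (Pax7_48). Col1a2 alone was at 424 and 387 (Pax7_GM) and at 3.61 and 3.28 CPM (Tw2_GM). Col3a1 went the other way, at 462 and 477 (Pax7_GM) and 987 and 940 CPM (Tw2_GM). This sum does not stand for its genes either. At 48 Col3a1 was called lower in both lineages (-1.94 in Pax7 and -2.29 in Tw2 on the log2 scale). Col1a2 was called higher in Tw2 (1.66 ± 0.44) and not called in Pax7 (-0.65), and Col1a1 was not called in either lineage. The 2 Tw2_48 libraries were far apart, at 2.04 and 20.3 CPM for Col1a1 and 6.84 and 24.1 CPM for Col1a2. The 5 of 7 pericyte and smooth muscle markers that were listed summed to 845 to 983 CPM in the GM libraries and to 5223 to 8842 CPM in the 48 libraries, where Acta2 held most of the sum and Rgs5 was at 0 in both Pax7_48 libraries. The sum does not stand for the list, since Rgs5, Cspg4 and Mcam were called lower at 48 in both lineages. Their log2 fold changes were -3.97, -1.05 and -2.50 in Pax7 and -5.47, -1.70 and -2.30 in Tw2. Acta2 was called higher in both lineages and Tagln in Tw2 alone. Of the 8 muscle markers 5 were listed, with sums of 1261 to 2065 CPM in GM and of 7567 to 8394 CPM at 48. Myog, Des and Ckm were called higher at 48 in both lineages, and Pax7 and Vcam1 lower. Erbb3, the 1 of 6 glia markers in the table, was at 8.94 to 23.4 CPM in GM and at 314 to 580 CPM at 48. No marker of the 8 for endothelium or the 5 for epithelium was listed. The part of these cell types in the members' differences was not tested. In such bulk samples fewer cells of a type and less RNA per cell cannot be told apart.

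Fat1, a giant cadherin with a known role in muscle shape, was called between the cultures and, as deposited, not between the lineages. It was at 663 and 647 (Tw2_GM), 596 and 668 (Pax7_GM), 286 and 261 (Tw2_48) and 271 and 276 CPM (Pax7_48). The lineages overlapped in both cultures, while the cultures did not. At 48 it fell by 1.20 ± 0.13 on the log2 scale in Pax7 and by 1.26 ± 0.13 in Tw2. The lineage difference was 0.05 ± 0.13 in GM (adjusted p = 0.716), but it was -0.82 after size factors and -0.35 with the trend removed, both called.

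The listed genes of the Pcdhb cluster were higher in Tw2 and were not called between the cultures as deposited. Each reached 10 CPM in the 4 Tw2 libraries alone, so the filter of the table let them in through the side where they are high, and the lineage values are a description. These protocadherins are encoded by single exons side by side on chromosome 18 and are best known from neurons, where single cells use different sets of them. Pcdhb17 was at 16.2 and 19.1 (Tw2_GM), 4.06 and 5.98 (Pax7_GM), 17.3 and 18.1 (Tw2_48) and 5.07 and 5.11 CPM (Pax7_48). Pcdhb19 was at 15.5 and 12.04 (Tw2_GM), 1.35 and 1.93 (Pax7_GM), 16.5 and 15.96 (Tw2_48) and 1.41 and 1.70 CPM (Pax7_48). Pcdhb22 was at 13.9 and 11.6 (Tw2_GM), 2.57 and 3.67 (Pax7_GM), 12.2 and 10.6 (Tw2_48) and 4.42 and 3.67 CPM (Pax7_48). For each of the 3 genes all 4 Tw2 libraries lay above all 4 Pax7 libraries.

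The log2 fold change of Tw2 over Pax7 in GM was 1.64 ± 0.17 for Pcdhb17, 2.48 ± 0.17 for Pcdhb19 and 1.75 ± 0.18 for Pcdhb22, and at 48 it was 1.62 ± 0.17, 2.75 ± 0.17 and 1.30 ± 0.18. Between the cultures the log2 fold changes were 0.03, -0.04 and 0.30 in Pax7 and 0.01, 0.23 and -0.14 in Tw2, with SEs of 0.17 to 0.18 and none called as deposited. After size factors, or with the GC and length trend removed, 1 of the 3 was called higher at 48 in Pax7 and 2 of the 3 in Tw2, so the lack of a call between the cultures holds for the deposited scale. The values rest on few reads, from 10 in each Pax7_GM library for Pcdhb19 to 238 for Pcdhb17 in the deeper Tw2_48 library. The Pcdhb genes are near copies of each other, and reads may have been split between them.

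Pcdhgb1, of the neighbouring gamma cluster, was at 18.2 and 14.7 (Tw2_GM), 4.61 and 3.47 (Pax7_GM), 10.8 and 10.7 (Tw2_48) and 2.16 and 1.83 CPM (Pax7_48). It too reached 10 CPM in the Tw2 libraries alone and was above Pax7 in each of them, by 1.79 ± 0.16 in GM and 1.98 ± 0.16 at 48 on the log2 scale. Unlike the Pcdhb genes it was called lower at 48, with a log2 fold change of -0.74 ± 0.16 in Pax7 and -0.56 ± 0.16 in Tw2, though not under every scaling. In Tw2 the call was lost without either Tw2_48 library (adjusted p = 0.0524 and 0.0580) or without the deeper Tw2_GM library (log2 fold change -0.41, adjusted p = 0.102). Its variable first exon is spliced to exons that all gamma genes share, and its span holds other gamma genes on the same strand, so that its count is uncertain.

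**Figure D3:**
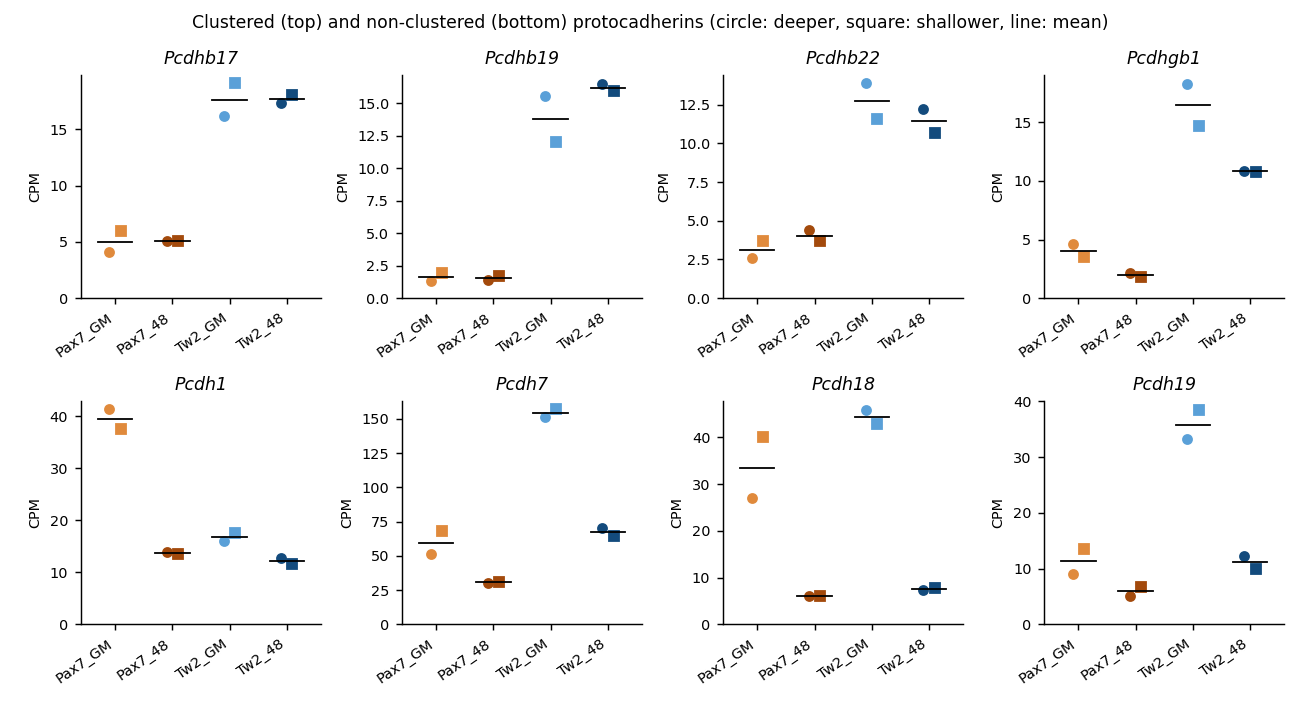
CPM of the clustered protocadherins Pcdhb17, Pcdhb19, Pcdhb22 and Pcdhgb1 (top) and of the non-clustered Pcdh1, Pcdh7, Pcdh18 and Pcdh19 (bottom) by group, with a circle for the deeper library, a square for the shallower library and a line at their mean. The top genes, which reached the 10 CPM of the filter in the Tw2 libraries alone, are higher in the Tw2 groups in both cultures. The bottom genes are lower at 48, with Pcdh1 highest in Pax7_GM (41.5 and 37.6 CPM).

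The 4 non-clustered protocadherins, each a gene on its own, were all lower at 48 in both lineages. Pcdh7 was at 151 and 157 (Tw2_GM), 51.5 and 68.1 (Pax7_GM), 70.4 and 64.2 (Tw2_48) and 30.4 and 31.3 CPM (Pax7_48). Its log2 fold change at 48 was -0.92 ± 0.16 in Pax7 and -1.18 ± 0.16 in Tw2, and Tw2 exceeded Pax7 by 1.36 ± 0.16 in GM and 1.098 ± 0.16 at 48, each under every scaling. Pcdh18 was at 45.8 and 42.9 (Tw2_GM), 27.0 and 40.1 (Pax7_GM), 7.35 and 7.88 (Tw2_48) and 6.01 and 6.02 CPM (Pax7_48). It fell by 2.27 ± 0.18 on the log2 scale in Pax7 and by 2.40 ± 0.18 in Tw2 and was not called between the lineages as deposited, and it reached 10 CPM in GM alone, so that the fall was selected for.

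Pcdh19, an X-linked protocadherin of the nervous system, was at 33.2 and 38.4 (Tw2_GM), 9.08 and 13.5 (Pax7_GM), 12.3 and 10.0 (Tw2_48) and 5.17 and 6.81 CPM (Pax7_48). The Tw2_GM libraries stood above all others. Tw2 exceeded Pax7 by 1.602 ± 0.21 in GM. At 48 the excess was 0.80 ± 0.21 (adjusted p = 0.0114), lost without the deeper Pax7_48 library (adjusted p = 0.0822) or the deeper Tw2_48 library (adjusted p = 0.0861) and, at 0.22, after size factors. The log2 fold change at 48 was -1.601 ± 0.21 in Tw2 and -0.80 ± 0.21 in Pax7, the latter not called without the deeper Pax7_48 library (-0.63, adjusted p = 0.0662). Pcdh19, Itgb1bp2 and Cldn2 are on the X chromosome, and the sex of the mice is not given.

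Pcdh1, in contrast to the other 3, was highest in Pax7_GM. It was at 15.9 and 17.6 (Tw2_GM), 41.5 and 37.6 (Pax7_GM), 12.7 and 11.7 (Tw2_48) and 14.0 and 13.6 CPM (Pax7_48). The Tw2_GM value differed from that of Pax7_GM by -1.19 ± 0.13 on the log2 scale, and at 48 the lineages differed by -0.16 ± 0.13 (adjusted p = 0.286), which was -0.78 after size factors and -0.52 after quantile normalization, both called. Between the cultures the log2 fold change was -1.45 ± 0.13 in Pax7. In Tw2 it was -0.43 ± 0.13 (adjusted p = 0.0138), lost without the shallower library of Tw2_48 (adjusted p = 0.0957) or of Tw2_GM (adjusted p = 0.0962) and at 0.0049 after size factors.

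Of the claudins, the membrane proteins of tight junctions, Cldn2, which forms ion pores, was low in GM and higher at 48 in both lineages, and it is listed through the 48 libraries alone, so that this difference was selected for. It had 5 and 1 reads in the Tw2_GM libraries (0.411 and 0.0885 CPM) and was at 2.30 and 4.05 (Pax7_GM), 19.3 and 17.9 (Tw2_48) and 17.3 and 18.3 CPM (Pax7_48). The groups did not overlap in GM and overlapped at 48. In pooled reads the ratio of 48 to GM was 73.2 in Tw2, with an exact 95% interval of 33.4 to 201, and 5.86 in Pax7, with an interval of 4.18 to 8.43. At 48 the log2 fold change between the lineages was 0.06 ± 0.22 (adjusted p = 0.826) as deposited and -0.57 after size factors.

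Cldn12 fell from 293 and 286 to 74.2 and 64.9 CPM in the Tw2 libraries and from 169 and 187 to 54.1 and 41.8 CPM in the Pax7 libraries. The log2 fold change at 48 was -2.05 ± 0.16 in Tw2 and -1.88 ± 0.16 in Pax7. It was higher in Tw2 in GM (0.70 ± 0.16) and at 48 (0.54 ± 0.16), but -0.17 and -0.11 after size factors, and at 48 the call was lost without the shallower Pax7_48 library (adjusted p = 0.143) or the deeper Tw2_48 library (adjusted p = 0.125). The gene listed as Cldn25 was at 108 and 113 (Tw2_GM), 58.7 and 70.0 (Pax7_GM), 85.6 and 82.5 (Tw2_48) and 40.7 and 39.4 CPM (Pax7_48). Tw2 exceeded Pax7 by 0.77 ± 0.13 in GM, where the value was -0.09 after size factors, and by 1.05 ± 0.13 at 48. The symbol is a synonym of both Cldnd1 and the pseudogene Cldn25-ps in RefSeq, and which of them was counted is not given in the sources used here. The listed gene may therefore be no claudin. Its log2 fold change at 48 was -0.67 ± 0.13 in Pax7 and -0.39 ± 0.13 in Tw2, the latter lost without any 1 of the Tw2 libraries (adjusted p = 0.0711 to 0.116).

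The adhesion proteins with immunoglobulin domains rose at 48 with the exception of Cadm1, and of Cadm4 in Pax7. Ncam1, the neural cell adhesion molecule, also a marker of myoblasts, was at 609 and 633 (Tw2_GM), 471 and 552 (Pax7_GM), 2444 and 2212 (Tw2_48) and 1614 and 1507 CPM (Pax7_48). Both 48 groups were above both GM groups. Its log2 fold change was 1.90 ± 0.14 in Tw2 and 1.61 ± 0.14 in Pax7. At 48 Tw2 was above Pax7 by 0.58 ± 0.14, but the value was -0.08 after size factors and the call was lost without the shallower Pax7_48 library (adjusted p = 0.0569) or the deeper Tw2_48 library (adjusted p = 0.0659).

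Jam3 and Jam2 encode Jam-C and Jam-B, which bind each other and are needed for myoblast fusion in zebrafish. Jam3 was at 70.3 and 71.9 (Tw2_GM), 58.5 and 58.1 (Pax7_GM), 345 and 321 (Tw2_48) and 196 and 172 CPM (Pax7_48). It rose by 2.21 ± 0.13 in Tw2 and by 1.64 ± 0.13 in Pax7 on the log2 scale, and the difference of these changes was 0.57 ± 0.18 (adjusted p = 0.0631), and 0.78, 0.91 and 0.55 under the 3 other scalings, each called. At 48 Tw2 exceeded Pax7 by 0.86 ± 0.13, or 0.20 and not called after size factors. Jam2 was at 215 and 245 (Tw2_GM), 67.2 and 79.7 (Pax7_GM), 360 and 328 (Tw2_48) and 147 and 135 CPM (Pax7_48). Every Tw2 library was above every Pax7 library. The lineages differed by 1.64 ± 0.15 in GM and 1.28 ± 0.15 at 48, and the rise was 0.93 ± 0.15 in Pax7 and 0.58 ± 0.15 in Tw2, all 4 under every scaling, the last with an adjusted p of 0.0503 without the deeper Tw2_GM library.

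Cadm1 and Cadm4 are nectin-like proteins that went apart. Cadm1 was at 117 and 117 (Tw2_GM), 54.6 and 70.2 (Pax7_GM), 53.9 and 46.4 (Tw2_48) and 33.4 and 28.7 CPM (Pax7_48). It fell at 48 by 1.21 ± 0.16 in Tw2 and 0.98 ± 0.16 in Pax7 on the log2 scale. Tw2 was above Pax7 by 0.91 ± 0.16 in GM and 0.67 ± 0.16 at 48, the latter with adjusted p of 0.0672 and 0.0706 without the shallower Pax7_48 or the deeper Tw2_48 library. After size factors these values were 0.043 and 0.031, and neither was called. Cadm4 was at 46.0 and 55.2 (Tw2_GM), 19.2 and 16.8 (Pax7_GM), 75.9 and 73.2 (Tw2_48) and 16.3 and 19.1 CPM (Pax7_48). The lineages differed by 1.44 ± 0.15 in GM and 2.02 ± 0.15 at 48, under every scaling. Between the cultures Cadm4 was at -0.03 ± 0.15 in Pax7 (adjusted p = 0.882) and at 0.56 ± 0.15 in Tw2, lost without the deeper library of Tw2_48 (adjusted p = 0.0504) or of Tw2_GM (adjusted p = 0.0769) and at -0.02 with the trend removed.

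**Figure D4:**
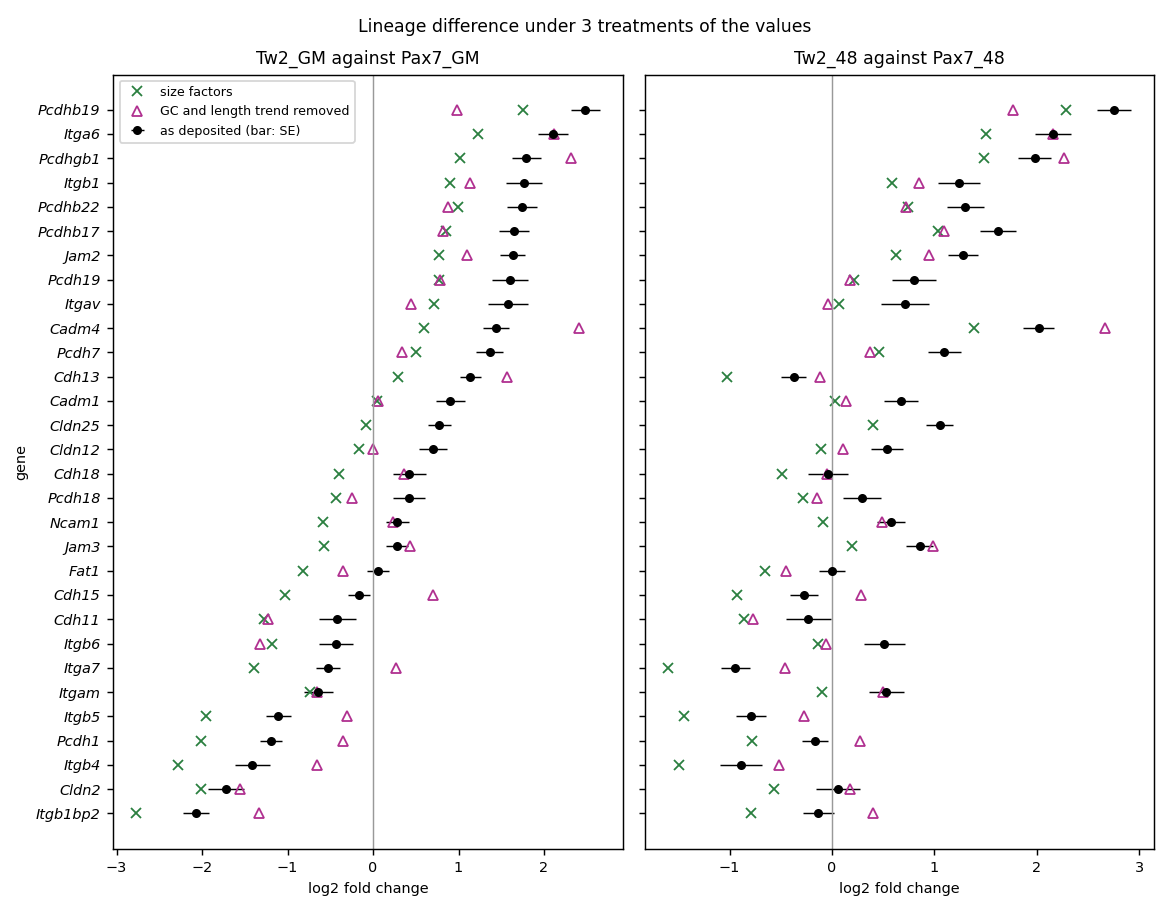
Log2 fold change of Tw2 over Pax7 for the 30 members in GM (left) and at 48 (right), as black points with the SE for the deposited values, green crosses after size factors and open triangles once the trend with GC content and length was removed. The crosses lie to the left of the points, by 0.84 in the median of all genes in GM, and Itga6 (2.10 and 2.16) stays to the right of 0 in all 3. Pcdhb19 (2.48 and 2.75) and Pcdhgb1 (1.79 and 1.98) do so as well. These 2 genes reached 10 CPM in the Tw2 libraries alone, so the filter of the table favoured that side.

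Genes that work with cadherins and at junctions were described from a list of 34, of which 15 were in the table. At 48 4 rose and 9 fell in Pax7 and 5 rose and 8 fell in Tw2. Of all genes 38.8% rose and 40.5% fell in Pax7, and 35.3% rose and 48.9% fell in Tw2. Kirrel, a nephrin-like adhesion protein, had log2 fold changes of -3.01 in Pax7 and -3.66 in Tw2. Cgnl1, which encodes paracingulin, rose from 20.9 and 22.1 CPM to 184 and 164 CPM in Tw2 and from 18.0 and 21.8 CPM to 99.2 and 90.0 CPM in Pax7. Between the lineages 10 were higher and 2 lower in Tw2_GM, and 2 higher and 8 lower after size factors. Of all 5452 genes 2655 were higher and 1417 lower as deposited, and 1392 higher and 2940 lower after size factors. Dchs1, the cadherin that binds Fat4, was at 4.35 and 3.28 (Tw2_GM) and 30.1 and 35.5 CPM (Pax7_GM), a log2 fold change of -2.82 ± 0.17 that held under every scaling. Pvrl3, the gene of nectin-3, was higher in Tw2 by 1.64 ± 0.16 in GM and 1.63 ± 0.16 at 48.

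The change between the cultures itself differed between the lineages for 6 members, 5 with a higher and 1 with a lower value in Tw2, against 18.7% of all genes called, 9.72% higher and 9.01% lower. These were Itgb1bp2 (1.94 ± 0.22), Cldn2 (1.78 ± 0.31), Itgam (1.17 ± 0.24), Pcdh1 (1.03 ± 0.18), Itgb6 (0.95 ± 0.28) and Cdh13 (-1.51 ± 0.17), on the log2 scale of Tw2 minus Pax7. Itgb1bp2, Pcdh1 and Cdh13 were called under every scaling as well. Cldn2, Itgam and Itgb6 reached 10 CPM at 48 alone, so the filter of the table selected for their rise and they support no count. The GM side of Itgam rests on 0 reads in both Tw2_GM libraries and on 4 and 3 reads in Pax7_GM. For Itgb1bp2, Cldn2 and Pcdh1 the lineages differed in GM and as deposited were not called at 48, where size factors gave called values of -0.79, -0.57 and -0.78. The count rests on the Pax7_GM libraries, since without the shallower one 16 members were called, 8 in each direction.

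**Figure D5:**
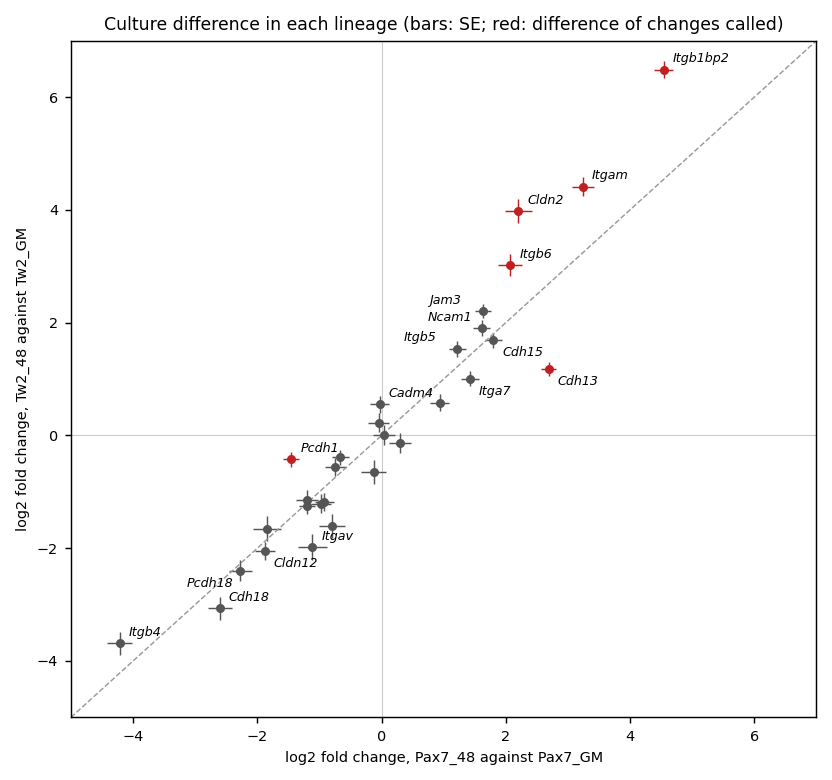
Log2 fold change of 48 over GM in Tw2 (vertical axis) against Pax7 (horizontal axis) for the 30 members, with bars for the SE, a dashed line of equal change and in red the 6 members whose changes were called as different. Itgb1bp2 (4.54 and 6.49), Itgam, Cldn2, Itgb6 and Pcdh1 lie above the line and Cdh13 (2.69 and 1.17) lies below it. Itgam, Cldn2 and Itgb6 reached 10 CPM at 48 alone, so the filter of the table selected for their rise.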

How the data were processed

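RNA was sequenced from 8 libraries of cultured sorted mouse cells, in 4 groups of 2. Per the submitters' processing notes, TopHat2 2.0.0, DESeq2 1.6.3 and GRCm38 (mm10) were used, without their roles, and the counting tool, annotation and strand handling are not given in the sources used here. The authors deposited a table that lists 5457 genes, with CPM averaged by group and with log2 fold changes whose reference is Tw2_GM. The latter equal log2 of the ratio of (mean + 1) and were not used for the tests. Each listed gene differs at least 2-fold from Tw2_GM in 1 group or more and reaches 10 CPM in at least 4 libraries. Genes outside the table were not analysed here.

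A mean of 2 libraries' CPM is a sum of whole multiples of 2 steps, and the steps gave each library's size. Of 21828 group means 21821 had 1 solution in whole reads, and 5452 genes, with all 30 members, were solved in each group. The 5 others (Acta1, Actc1, H19, Myh3 and Mylpf) were left out. The means carry no replicate numbers, so the libraries are named by depth. With limma 3.58.1 in R 4.3.3, log2(CPM + 1) was fitted with a mean for each group over all 8 libraries, and p-values were adjusted over 5452 genes by Benjamini-Hochberg. The 5 comparisons were the 2 lineages in each culture, the 2 cultures in each lineage and the difference of the culture changes. No count test was run. The solver and the fit were tested on simulated data. GC content and length are of the longest transcript in GENCODE M21. Alternatives were pseudocounts of 0.5 and 5, median-of-ratios size factors, quantile normalization, removal of a loess trend with GC content and length (span 0.5), a filter of 5 CPM, the compared groups alone and each library left out in turn. A count of 0 was given an upper limit of 3 reads, 0.218 to 0.579 CPM by library, for counting error only.

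All members of the rule were named. Values per library were given for the laminin-binding subunits and for up to 4 called members of each other subfamily by size of change, the rest being added, and up to 4 called genes from each partner list were eligible by size of change. Some of these are not reported here. The members and lists were chosen with earlier results of these data known.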

Additional observations from a re-analysis of the deposited data

Results flagged for a closer look

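For 6 members the change from GM to 48 differed between the lineages by limma's test of the difference itself (adjusted p under 0.05). The difference of the log2 changes, Tw2 minus Pax7, was 1.94 for Itgb1bp2 (adjusted p = 9.02e-04), 1.78 for Cldn2 (adjusted p = 0.00643), 1.17 for Itgam (adjusted p = 0.0138), 1.03 for Pcdh1 (adjusted p = 0.00749), 0.95 for Itgb6 (adjusted p = 0.0493) and -1.51 for Cdh13 (adjusted p = 9.68e-04). Itgb1bp2, Pcdh1 and Cdh13 were called under each of the 3 other scalings. Cldn2 was at 0.68 and not called after quantile normalization (adjusted p = 0.0670). Its Tw2_GM side rests on 5 and 1 reads, and it is listed through the 48 libraries alone. Itgam and Itgb6 are listed through those libraries alone as well, and Itgam had 0 reads in both Tw2_GM libraries. After quantile normalization Itgb6 (0.56, adjusted p = 0.223) and Itgam (0.37, adjusted p = 0.258) were not called. Itgam was not called after size factors either (0.65, adjusted p = 0.0958). Itgb6 was lost without either Tw2_48 library, either Pax7_48 library or the shallower Tw2_GM library (adjusted p = 0.0933 to 0.167). Itgam was lost without the shallower Pax7_48, the deeper Tw2_48 or either Tw2_GM library (adjusted p = 0.0577 to 0.0666) and with a pseudocount of 5 (adjusted p = 0.0642).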

How the results depend on the processing

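No paired analysis was possible because the columns are group means and carry no replicate numbers. A value counts as reversed here if its sign changed and it was called before or after the change, so sign changes of values called on neither side are left out. Between the cultures no member reversed in this sense in Pax7 under any alternative run, and in Tw2 3 did, Cldn25 (0.067) and Pcdh1 (0.0049) after size factors and Cadm4 (-0.019) with the GC and length trend removed. Size factors reversed Cldn25 (-0.088), Cldn12 (-0.17), Pcdh18 (-0.43), Jam3 (-0.58), Ncam1 (-0.59) and Fat1 (-0.82) for Tw2_GM against Pax7_GM, and Ncam1 (-0.083), Itgam (-0.093), Cldn12 (-0.11), Itgb6 (-0.13) and Cldn2 (-0.57) for Tw2_48 against Pax7_48. The removal of the trend reversed Itga7 (0.27), Cdh15 (0.70) and Fat1 (-0.35) in the former and Itgav (-0.042), Itgb6 (-0.056) and Itgb1bp2 (0.40) in the latter. Size factors subtract from every lineage value, as the shift of the median shows, and the cause of the other reversals was not tested. Each scaling used the listed genes alone, whose share of the reads differed between the lineages. Which direction holds for a reversed value was therefore not settled.

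With size factors 14 members, in place of 7, were lower in Tw2_GM, and at 48 10 were higher and 11 lower, in place of 18 and 4. The calls over all 5452 genes moved the same way. In GM 1392 were higher and 2940 lower in Tw2 after size factors, in place of 2655 and 1417. At 48 944 were higher and 2634 lower, in place of 2363 and 1205. The difference of changes had 2 members lower, in place of 1, with a pseudocount of 5 and with the trend removed. Of all genes 1178 were lower in it with the trend removed, in place of 491. Leaving out 1 library, members called ranged from 21 to 25 in Tw2_GM against Pax7_GM, from 24 to 26 in Pax7_48 against Pax7_GM and from 22 to 27 in Tw2_48 against Tw2_GM. In Tw2_48 against Pax7_48 they ranged from 13 to 24, higher from 11 to 19 and lower from 2 to 5, with the lowest values without the deeper Tw2_48 library. For the difference of changes the range was 4 to 16, higher 3 to 8 and lower 1 to 8, with the highest without the shallower Pax7_GM library, and with 3 higher without the deeper Tw2_48, the shallower Pax7_48 or the shallower Tw2_GM library. Counts of all genes with 1 library left out are not given here, so these ranges show no trait of the members. The filter of 5 CPM removed no gene. With 2 libraries a group, SEs of a log2 fold change had a median of 0.16, and at 5.18 M reads, the smallest library, 3 reads are 0.579 CPM.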
